A study of Mus musculus with 2 samples.

Results

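The TGF-beta and activin ligands, their binding protein follistatin and the TGF-beta receptors were described by their transcripts in single cells of the mouse choroid and retinal pigment epithelium (RPE). The members were 9 genes taken by symbol from the 32285 genes of the matrices: the ligand genes Tgfb1, Tgfb2 and Tgfb3, the activin subunit genes Inhba and Inhbb, the inhibitor gene Fst, and the receptor genes Tgfbr1, Tgfbr2 and Tgfbr3. The tissue was the choroid, the vascular layer behind the retina, with RPE, the epithelium between choroid and photoreceptors. It came from untreated wild-type ICR mice, an albino outbred strain, at 8 weeks of age, and no genotype or treatment was compared. Each of 2 droplet libraries (10x Chromium 3' v3.1) pooled tissue of 1 male and 1 female mouse, so animals within a library cannot be told apart. The question addressed was which cell classes carried each transcript, and how the levels differed within a class.

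TGF-beta ligands are secreted as latent dimers, held by a latency peptide, latent TGF-beta binding proteins (Ltbp) or membrane anchors, and are released by integrins. The free ligand binds the type II receptor Tgfbr2, which recruits and phosphorylates the type I receptor Tgfbr1. Tgfbr1 phosphorylates the transcription factors Smad2 and Smad3. Betaglycan, the product of Tgfbr3, presents ligand to the signalling receptors and is needed most by TGF-beta 2, known as the main isoform in the fluids of the eye. Activins are dimers of Inhba or Inhbb subunits that signal through activin receptors to the same Smads, and follistatin (Fst) binds and neutralises them.

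Promoter sequence of 6 of the 9 members was found in the RefSeq table for GRCm38.p6. The 250 bases before the annotated start are shown for 4 ligand genes because these led in different cell classes below: Tgfb1 was higher in the endothelial class and macrophages, Inhbb in the endothelial class, and Tgfb2 and Inhba in the fibroblast and mural classes. All are read 5′ to 3′ on the strand of the gene, which is plus for Tgfb1 (chr7:25686752-25687001) and Inhba (chr13:16011601-16011850) and minus for Tgfb2 (chr1:186705990-186706239) and Inhbb (chr1:119422249-119422498). Capitals mark matches, on either strand, to 6 motifs: the AP-1 site TGANTCA, the cAMP response element TGACGTCA, the Smad box CAGAC, the GC box GGGCGG, the TATA box TATAAA and the CCAAT box CCAAT.
Tgfb1 promoter: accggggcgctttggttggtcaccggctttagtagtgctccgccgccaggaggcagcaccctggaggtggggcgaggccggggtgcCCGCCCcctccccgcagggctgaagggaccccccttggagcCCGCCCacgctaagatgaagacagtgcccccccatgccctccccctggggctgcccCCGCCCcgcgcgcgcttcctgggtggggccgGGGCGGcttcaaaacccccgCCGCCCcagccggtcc
Inhbb promoter: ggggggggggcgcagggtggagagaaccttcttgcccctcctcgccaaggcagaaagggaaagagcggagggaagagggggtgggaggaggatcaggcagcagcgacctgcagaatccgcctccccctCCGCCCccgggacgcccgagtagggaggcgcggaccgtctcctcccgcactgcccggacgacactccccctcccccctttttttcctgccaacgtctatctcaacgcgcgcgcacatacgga
Tgfb2 promoter: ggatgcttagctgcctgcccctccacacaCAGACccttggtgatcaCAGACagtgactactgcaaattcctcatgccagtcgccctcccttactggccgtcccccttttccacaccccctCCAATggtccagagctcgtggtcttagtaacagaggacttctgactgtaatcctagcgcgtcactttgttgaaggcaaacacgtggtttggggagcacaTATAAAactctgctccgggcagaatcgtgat
Inhba promoter: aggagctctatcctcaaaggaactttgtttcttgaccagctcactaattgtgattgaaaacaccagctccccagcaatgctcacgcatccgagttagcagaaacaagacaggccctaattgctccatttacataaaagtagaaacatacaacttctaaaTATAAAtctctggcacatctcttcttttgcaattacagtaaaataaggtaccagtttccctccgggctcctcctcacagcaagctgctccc
On GRCm38, Tgfb1 lies at chr7:25687002-25705077, Tgfb2 at chr1:186622792-186705989, Tgfb3 at chr12:86056745-86079041, Inhba at chr13:16011851-16031621, Inhbb at chr1:119415465-119422248 and Fst at chr13:114452290-114458951. The receptor genes lie at chr4:47353222-47414931 (Tgfbr1), chr9:116084293-116175360 (Tgfbr2) and chr5:107106570-107289629 (Tgfbr3).
The Tgfb1 window was 75.2% G and C and held 5 GC boxes, and the Inhbb window was 68% G and C and held 1 GC box. The Tgfb2 window was 53.6% G and C, with a TATA box at position -31 from the annotated start, 2 Smad boxes and 1 CCAAT box. The Inhba window was 43.2% G and C, with a TATA box at position -91. Among 32851 windows of the same length the mean G and C share was 53.2%. The GC box occurred in 32.7% of these windows, the TATA box in 12.4%, the Smad box in 42.2%, the CCAAT box in 33.8%, the AP-1 site in 6.75% and the cAMP response element in 1.55%. A match is a description of the letters and not a binding site.

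The libraries held 91741168 and 149570817 UMIs, and 8497 and 13401 barcodes passed minimums of 1000 UMIs and 500 genes with mitochondrial UMIs of up to 20%. A barcode went to the class whose 3 marker genes had the most UMIs, with at least 5, which placed 7819 and 12617 barcodes in 6 classes. Fibroblasts took 4095 and 6278 barcodes, melanocytes 1407 and 2249, RPE 304 and 902, the endothelial class 465 and 609, the mural class of pericytes and smooth muscle 1118 and 1713, and macrophages 430 and 866. The summed level of 5 further markers for each class was at least 3017 CPM (a class's UMIs of the gene scaled to 1000000 UMIs in that library) in the class they mark and at most 2411 CPM elsewhere, a value set by RPE markers in the melanocytes of library 2, against 69529 CPM or more in RPE. None of these markers was at 0 in its class. A second class also reached 5 marker UMIs in 25.4% and 33.9% of these barcodes, and 31 barcode sequences occurred in both libraries. Barcodes with a second class at 5 marker UMIs are called mixed below by this rule alone, whatever their depth. Scrublet called 2.52% and 5.27% of barcodes doublets, and these were left in unless stated. Barcodes with at most 100 UMIs, which stand for free RNA, held 4.90% and 4.11% of all UMIs. Haemoglobin and Alas2 transcripts summed to 5.74 to 3307 CPM across classes and libraries and were highest in the endothelial class, and their part in the results was not tested. A 3' library counts molecules without regard to length. The text compares classes only, so levels of different genes are not ranked.

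**Figure D1:**
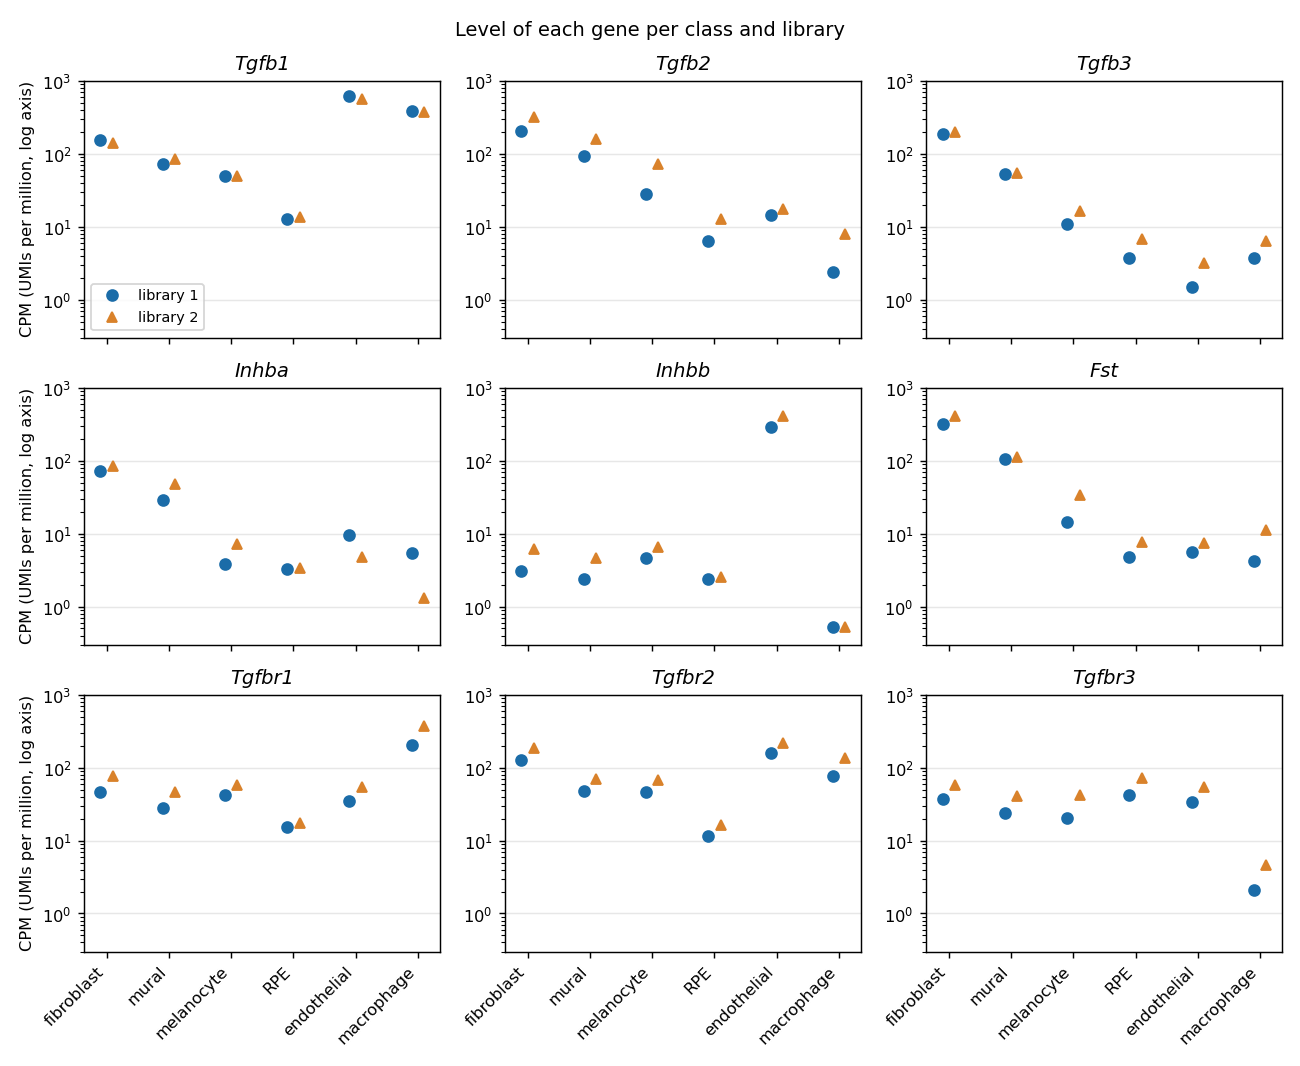
Level of each of the 9 genes in CPM (log axis) by class, with circles for library 1 and triangles for library 2. Tgfb1 and Inhbb peak in the endothelial class, Tgfb2, Tgfb3, Inhba and Fst in fibroblasts, Tgfbr1 in macrophages, Tgfbr2 in the endothelial class and Tgfbr3 in RPE, in both libraries.

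The ligand genes differed in the classes that carried them. Each class was set against the equally weighted mean of the other 5, and calls needed both an adjusted p under 0.05 (edgeR's quasi-likelihood test, Benjamini-Hochberg) and a log2 fold change of 1 or more, up or down. In fibroblasts 5 of the 9 genes were higher and 0 lower, where 18.2% of all genes tested were higher and 8.69% lower. The 5 were Tgfb2, Tgfb3, Inhba, Fst and Tgfbr2, 1 gene was lower at an unadjusted p under 0.05, and DESeq2 likewise called 0 lower. The mural class had 4 genes higher, Tgfb2, Tgfb3, Inhba and Fst, and 1 lower, Inhbb, beside 14.6% higher and 10.4% lower over all genes. With RLE scaling, raw UMI totals, DESeq2, no filter on low counts or free RNA subtracted, 0 mural genes were called lower. Against single classes, mural Inhbb was called lower than the endothelial class alone (endothelial over mural 6.66) and higher than macrophages (2.34). In the endothelial class Tgfb1, Inhbb and Tgfbr2 were higher and Tgfb2, Tgfb3 and Fst lower, 3 genes in each direction, beside 15.3% and 20.7% over all genes. The lower call of Tgfb2 reversed in sign with free RNA subtracted (0.40) and with mixed barcodes removed (1.18).

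Macrophages had Tgfb1, Tgfbr1 and Tgfbr2 higher, 3 genes, and the other 6 lower, where 19.5% of all genes were higher and 21.2% lower. The count of 6 was 3 with mixed barcodes removed. It was 5 with free RNA subtracted, with Scrublet doublets removed or without a filter on low counts. In RPE 1 gene, Tgfbr3, was higher and 8 were lower, beside 26.1% higher and 24.6% lower over all genes. The count of 8 was 3 with mixed barcodes removed and 4 with free RNA subtracted, where Tgfb3 (0.80) and Inhbb (0.095) also turned positive in RPE. Removing mixed barcodes left 23 and 78 of the 304 and 902 RPE barcodes. RPE held 1829 and 1593 CPM of the 3 melanocyte marker genes, against 37968 and 32474 CPM in melanocytes. The 5 further melanocyte markers summed to 495 and 444 CPM in RPE, against 8559 and 8759 CPM in melanocytes. RPE barcodes were also the deepest, with medians of 26253.5 and 19066 UMIs, and the limit of 5 UMIs does not scale with depth. Whether the removed barcodes were mixtures was not tested. With Scrublet doublets removed, which left 290 and 819 RPE barcodes, the count of lower genes in RPE stayed at 8. Melanocytes had 0 genes higher and 2 lower, Tgfb1 and Inhba, beside 14.5% higher and 11.3% lower over all genes. In melanocytes 1 gene was higher at an unadjusted p under 0.05, and DESeq2 also called 0 higher, but 2 were called higher with free RNA subtracted. Lower calls in melanocytes numbered 4 without Scrublet doublets and 3 with mixed barcodes removed. They numbered 1 with free RNA subtracted, with raw UMI totals or without a filter on low counts. The lower call of Inhba in melanocytes was not kept under all settings. The median log2 fold change of the 9 genes was 1.26 in fibroblasts and -1.88 in RPE, against medians of -0.01 and -0.07 over all genes tested. Over the 6 classes 16 of 54 comparisons were called higher and 20 lower. In a single class 14.5% to 26.1% of all genes were higher and 8.69% to 24.6% lower. Of the 16 higher calls, 15 kept their call under all 12 tested settings, Tgfbr2 in macrophages being the exception, while 8 of the 20 lower calls did. The UMIs expected from free RNA, with its share of a class set by rod genes, are an estimate: in macrophages of library 1 the share was 13.3%, and the expected UMIs exceeded those counted for Tgfb2, Tgfb3, Inhbb, Fst and Tgfbr3.

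**Figure D2:**
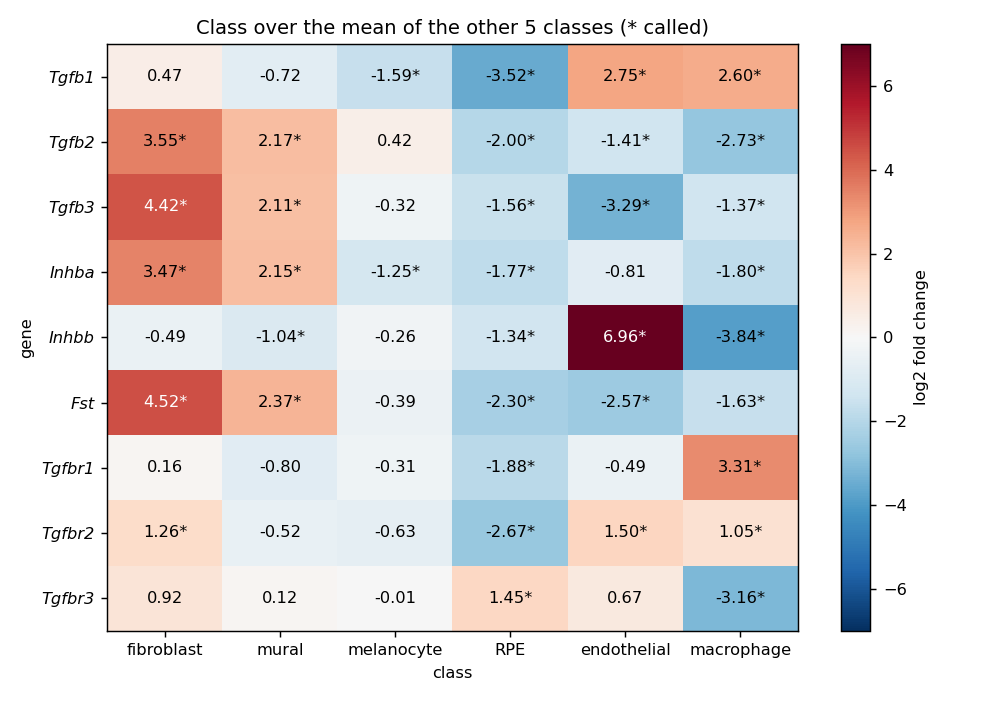
Log2 fold change of each gene (rows) in each class (columns) over the mean of the other 5 classes, with an asterisk where called. The colour runs from blue (lower) to red (higher), and the value furthest from 0 is 6.96, for Inhbb in the endothelial class.

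Tgfb1, which encodes the first described TGF-beta isoform, had its highest levels in endothelial cells and macrophages, while the more numerous fibroblasts held the largest share of its UMIs. It had 621 and 566 CPM in the endothelial class and 392 and 378 CPM in macrophages of libraries 1 and 2. Fibroblasts followed with 157 and 143 CPM, mural cells with 72.9 and 86.3 CPM, melanocytes with 49.2 and 49.2 CPM, and RPE with 12.6 and 13.4 CPM. The ranges of neighbouring classes did not overlap between libraries. Endothelial Tgfb1 exceeded the mean of the other classes by a log2 fold change of 2.75 ± 0.09 (SE, n = 2 libraries, adjusted p = 2.03e-11), and macrophage Tgfb1 by 2.60 ± 0.09 (adjusted p = 3.49e-11). After scaling, endothelial cells and macrophages were not distinguished (endothelial over macrophage 0.13 ± 0.13, adjusted p = 0.440), in a comparison that called 38.5% of all genes. RPE Tgfb1 was lower than the mean of the others by a log2 fold change of -3.52 ± 0.13 (adjusted p = 1.41e-10). Of all Tgfb1 UMIs in kept barcodes, fibroblasts held 44.3%, the endothelial class 24.6% and macrophages 13.2%. A single RPE barcode of library 1 held 48 of the 123 Tgfb1 UMIs of the class. Without Scrublet doublets, RPE Tgfb1 was 5.35 and 4.63 CPM.

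Tgfb2 and Tgfb3 followed the stroma. Tgfb2 had 208 and 319 CPM in fibroblasts, 94.0 and 161 CPM in mural cells and 28.0 and 72.7 CPM in melanocytes. In the endothelial class it had 14.3 and 17.3 CPM, in RPE 6.36 and 12.7 CPM, and in macrophages 2.36 and 8.06 CPM. Library 2 was the higher in every class, by different amounts, and the library term of the fit takes out a shared shift alone. Fibroblast Tgfb2 exceeded mural Tgfb2 by a log2 fold change of 1.16 ± 0.21 (adjusted p = 0.00119), where 19.0% of all genes differed between these classes, and the call was lost without the library term (1.14) and when barcodes with a second class were removed (0.92). Over the mean of the other classes it was higher by 3.55 ± 0.14 in fibroblasts (adjusted p = 2.53e-09) and by 2.17 ± 0.15 in mural cells (adjusted p = 3.45e-07). Macrophages had 9 and 62 Tgfb2 UMIs, against 38.3 and 62.4 expected from free RNA, an estimate that is too high for library 1. The lower call of the endothelial class (-1.41 ± 0.21, adjusted p = 0.000109) turned to 0.40 with free RNA subtracted and to 1.18 with mixed barcodes removed, not called in either.

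Tgfb3, the third isoform, had 188 and 197 CPM in fibroblasts and 53.4 and 54.3 CPM in mural cells. Melanocytes held 10.9 and 16.6 CPM, RPE 3.69 and 6.79 CPM, macrophages 3.67 and 6.37 CPM, and the endothelial class 1.4997 and 3.18 CPM. Fibroblasts and mural cells thus stood apart from the other 4 classes in both libraries. Fibroblast Tgfb3 exceeded mural Tgfb3 by a log2 fold change of 1.93 ± 0.20 (adjusted p = 1.66e-05) and the mean of the other classes by 4.42 ± 0.14 (adjusted p = 2.06e-10). Endothelial Tgfb3 was lower than the mean of the others by -3.29 ± 0.27 (adjusted p = 5.43e-07). Its 9 and 25 endothelial UMIs compare with 8.97 and 25.4 UMIs expected from free RNA. Macrophages had 14 and 49 Tgfb3 UMIs, against 37.0 and 47.1 expected.

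The activin subunit genes were found in different classes. Inhba, whose dimer is activin A, had 73.0 and 83.9 CPM in fibroblasts and 29.1 and 48.7 CPM in mural cells. In the endothelial class it had 9.50 and 4.83 CPM, in melanocytes 3.83 and 7.16 CPM, in macrophages 5.50 and 1.30 CPM and in RPE 3.28 and 3.35 CPM. Fibroblast Inhba exceeded the mean of the other classes by a log2 fold change of 3.47 ± 0.28 (adjusted p = 2.01e-05) and mural Inhba by 2.15 ± 0.31 (adjusted p = 0.000777). Fibroblasts over mural cells gave 1.10 ± 0.39 with an adjusted p of 0.0660 and were not called. The endothelial values rested on 1 barcode in each library, with 56 of 57 and 33 of 38 Inhba UMIs. Macrophages had 21 and 10 UMIs, against 13.9 and 19.9 expected from free RNA.

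Inhbb, the subunit of activin B, was an endothelial transcript. It had 291 and 413 CPM in the endothelial class and between 0.520 and 6.54 CPM in every other class and library, the highest in melanocytes with 4.66 and 6.54 CPM. In melanocytes of library 1 a single barcode held 39 of the 79 Inhbb UMIs, and melanocytes were not called over fibroblasts. Endothelial Inhbb exceeded the mean of the other classes by a log2 fold change of 6.96 ± 0.11 (adjusted p = 9.16e-14) and melanocyte Inhbb by 6.01 ± 0.19 (adjusted p = 9.73e-11), between classes that differed in 42.6% of all genes. The endothelial class held 84.3% of all Inhbb UMIs in kept barcodes. In macrophages 2 and 4 UMIs were counted, against 9.38 and 14.9 expected from free RNA. In mural cells, where Inhbb was called lower, 18 and 56 UMIs were counted, against 4.71 and 46.2 expected.

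Fst, whose product binds activins, ran with the stromal ligands. It had 319 and 409 CPM in fibroblasts, 107 and 113 CPM in mural cells and 14.6 and 34.0 CPM in melanocytes. The remaining 3 classes lay between 4.19 and 11.3 CPM, below every fibroblast, mural and melanocyte value. Fibroblast Fst exceeded mural Fst by a log2 fold change of 1.79 ± 0.24 (adjusted p = 0.000267) and the mean of the other classes by 4.52 ± 0.16 (adjusted p = 5.37e-09). Fibroblasts held 88.1% of all Fst UMIs in kept barcodes and 85.7% of those of Inhba. Without Scrublet doublets, melanocyte Fst was 3.03 and 4.52 CPM and was called lower than the mean of the others (-2.20), since 45 and 92 of its 248 and 879 UMIs lay outside barcodes called doublets. Macrophages had 16 and 87 Fst UMIs, against 53.8 and 69.5 expected from free RNA.

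Among the receptors, Tgfbr1, the type I kinase receptor, was highest in macrophages, with 208 and 371 CPM. Fibroblasts had 47.0 and 76.3 CPM, melanocytes 41.9 and 58.6 CPM, the endothelial class 34.5 and 54.7 CPM, mural cells 28.5 and 46.8 CPM, and RPE 15.4 and 17.2 CPM. Macrophages lay above every other class in both libraries and RPE below every other class. Macrophage Tgfbr1 exceeded the mean of the other classes by a log2 fold change of 3.31 ± 0.09 (adjusted p = 7.04e-12) and fibroblast Tgfbr1 by 2.63 ± 0.15 (adjusted p = 9.71e-09), between classes that differed in 45.6% of all genes.

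Tgfbr2, the type II receptor that first binds ligand, had 159 and 218 CPM in the endothelial class, 127 and 186 CPM in fibroblasts and 76.4 and 135 CPM in macrophages. Mural cells had 47.7 and 70.8 CPM, melanocytes 46.1 and 67.5 CPM, and RPE 11.5 and 16.6 CPM. The endothelial and fibroblast ranges overlapped, as did those of fibroblasts and macrophages, and RPE lay below every other class. Endothelial over fibroblast Tgfbr2 was 0.20 ± 0.12 (adjusted p = 0.185) where 36.8% of all genes differed between the classes. Over the mean of the others, the endothelial class was higher by 1.498 ± 0.09 (adjusted p = 9.07e-09), fibroblasts by 1.26 ± 0.09 (adjusted p = 6.99e-08) and macrophages by 1.05 ± 0.09 (adjusted p = 4.41e-07). The macrophage call ended with raw UMI totals in place of TMM scaling (0.63) and without a filter on low counts (0.88), and the value from library 1 alone was 0.86. RPE had the lowest level, with a log2 fold change of -2.67 ± 0.12 (adjusted p = 5.68e-10).

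Tgfbr3, the betaglycan gene, had its highest level in RPE, the class with the lowest levels of both signalling receptors. RPE had 43.0 and 71.9 CPM, fibroblasts 37.2 and 58.4 CPM, the endothelial class 33.5 and 54.7 CPM, mural cells 24.0 and 40.8 CPM, and melanocytes 20.5 and 42.1 CPM. Macrophages were apart with 2.09 and 4.68 CPM. RPE exceeded the mean of the other classes by a log2 fold change of 1.45 ± 0.10 (adjusted p = 2.98e-08), a mean that the low macrophage value pulls down. Against fibroblasts the RPE difference was 0.45 ± 0.13 (adjusted p = 0.00822), under the fold needed for a call, between classes that differed in 52.8% of all genes. With mixed barcodes removed, which left 23 and 78 RPE barcodes, RPE lay below fibroblasts (-0.46, not called). Macrophage Tgfbr3 was lower than the mean of the others by -3.16 ± 0.18 (adjusted p = 5.42e-09), and its 8 and 36 UMIs compare with 12.6 and 22.1 expected from free RNA.

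The share of barcodes with a UMI was close to its ceiling for Tgfb1 in both leading classes. This ligand gene was detected in 85.2% (81.6 to 88.3, exact 95% binomial interval) and 85.4% (82.3 to 88.1) of endothelial barcodes and in 84.2% and 86.8% of macrophages. Inhbb was detected in 56.3% (51.7 to 60.9) and 57.3% (53.3 to 61.3) of endothelial barcodes, against 0.233% and 0.462% of macrophages. These classes had close median depths, 8861 and 7933 UMIs in the endothelial class against 8727 and 8412.5 UMIs in macrophages. Fibroblast shares were 44.0% and 57.1% for Tgfb2, 47.8% and 51.9% for Tgfb3, 44.7% and 50.8% for Fst and 15.8% and 19.1% for Inhba.

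Depth moved the shares most in RPE, whose median was 26253.5 and 19066 UMIs. Tgfbr3 was detected in 60.9% (55.1 to 66.4) and 63.1% (59.8 to 66.2) of RPE barcodes, but in 4.76% and 6.53% after thinning each barcode to 1000 UMIs. Thinned fibroblasts had 3.89% and 6.35% and thinned macrophages 0.159% and 0.460%, so RPE and fibroblasts lay close at equal depth. RPE Tgfb3 likewise fell to 0.330% and 0.522% after thinning, against 8.88% and 10.2% at full depth. At 1000 UMIs, endothelial barcodes had a Tgfb1 share of 38.8% and 36.1%, against 29.7% and 30.4% in macrophages, and macrophages had the highest Tgfbr1 share, 16.2% and 27.4%. No barcode had to be left out of the thinning, since all held at least 1000 UMIs, and the intervals cover counting error only.

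**Figure D3:**
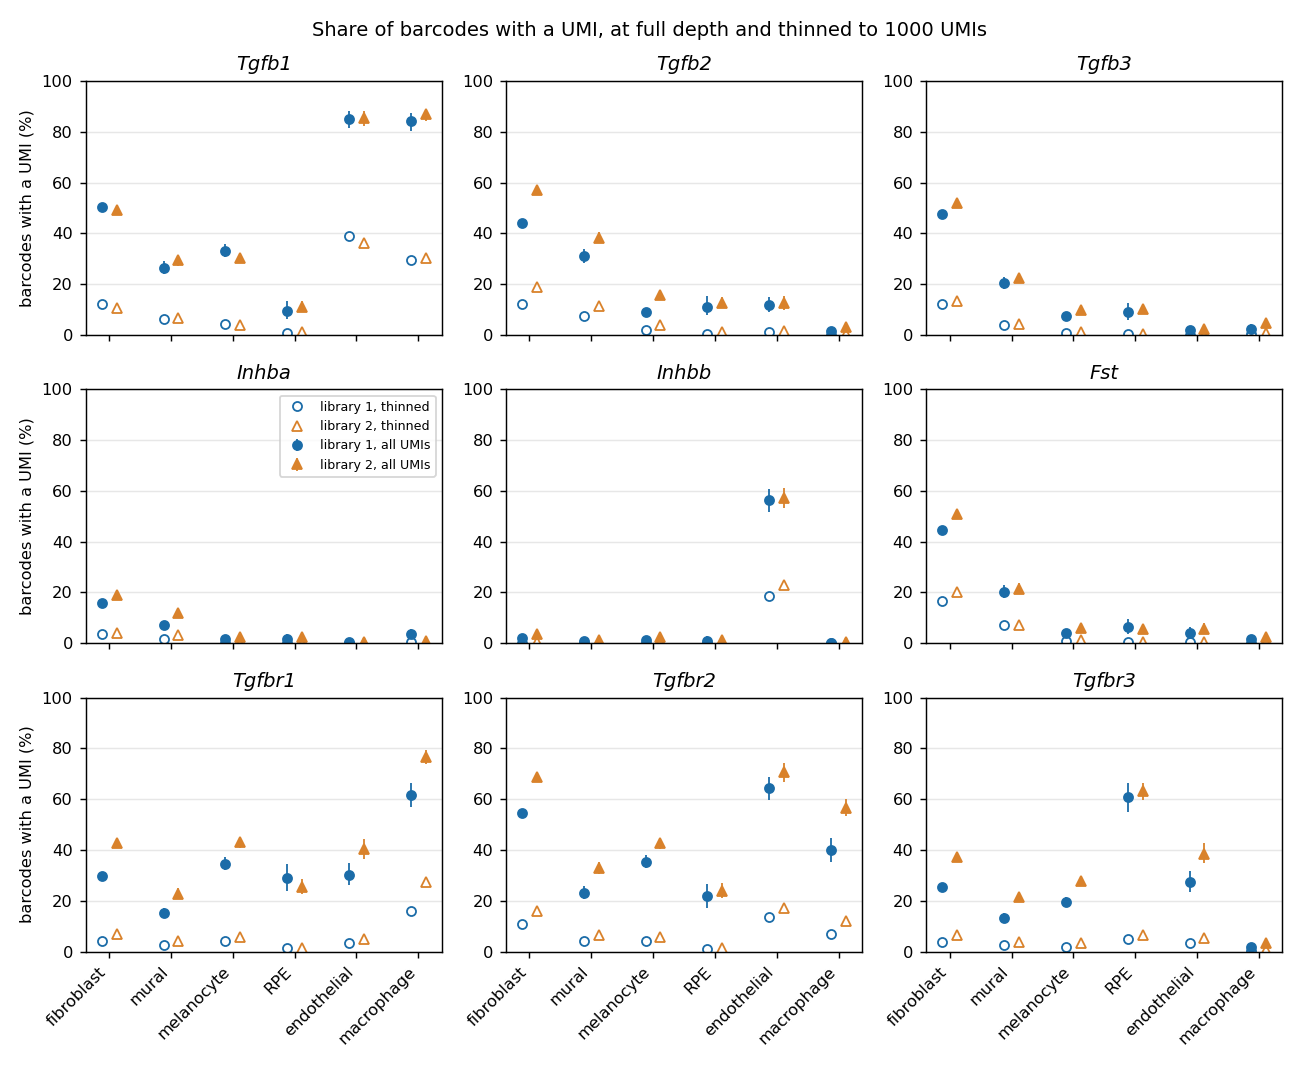
Share of barcodes with at least 1 UMI of each gene by class, filled for all UMIs (bars are exact 95% binomial intervals) and open after thinning to 1000 UMIs, with circles for library 1 and triangles for library 2. Filled RPE points for Tgfbr3 lie at 60.9% and 63.1% and the open ones at 4.76% and 6.53%.

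Receptor transcripts met in 1 barcode most often in macrophages. Tgfbr1 and Tgfbr2 were both detected in 29.8% and 47.2% of macrophages, 23.9% and 34.0% of endothelial barcodes and 19.4% and 32.9% of fibroblasts. The product of the separate shares was 24.7% and 43.4% in macrophages, and deeper barcodes detect both genes more often. In mural cells the joint share was 4.47% and 8.64%, and in RPE 9.21% and 9.98%. At least 1 of the 3 Tgfb ligand genes was detected in 75.2% and 79.0% of fibroblasts, 86.5% and 86.0% of endothelial barcodes and 23.7% and 27.2% of RPE barcodes. Inhba and Fst met in 8.60% and 12.8% of fibroblasts and in 1.16% and 2.34% of mural cells.

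Within the classes, barcodes were divided by pairs or triples of marker genes with at least 3 UMIs, and each subset was set against the mean of the other subsets of its class. The endothelial subset marked by Kdr, Plvap and Car4, genes of fenestrated capillaries, took 339 and 451 barcodes and carried Inhbb at 346 and 471 CPM. The Ackr1, Selp and Vwf subset, marked by venous genes, had 74.0 and 73.8 CPM, and the Gja4, Gja5 and Bmx subset, marked by arterial genes and made of 20 and 31 barcodes, had 4.42 and 38.5 CPM. Capillary-marked Inhbb was thus above both others in each library, by a log2 fold change of 3.27 ± 0.35 (adjusted p = 2.34e-06). In this subset 2 of 9 members were called, Inhbb and Tgfb1, against 6.46% of all genes. Tgfb1 had 689 and 615 CPM there, against 349 and 266 CPM in the arterial-marked and 329 and 262 CPM in the venous-marked subset (1.07 ± 0.20, adjusted p = 0.00123).

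The arterial-marked subset had 2 members called, beside 4.72% of all genes. Tgfb2 had 79.6 and 38.5 CPM there, from 18 and 10 UMIs, of which 1 barcode in each library held 10 and 4, against 11.3 and 17.6 CPM in the capillary-marked subset (2.02 ± 0.49, adjusted p = 0.0145), and Inhbb was lower (-3.11 ± 0.58, adjusted p = 0.00165). The venous-marked subset also had 2 members called, beside 3.65% of all genes. Its Inhba call (9.07 ± 1.15, adjusted p = 6.28e-05) rested on the same 2 barcodes, with 56 and 33 UMIs, and no other of its 84 and 92 barcodes had an Inhba UMI. Its Tgfbr3 level was 51.3 and 79.1 CPM, against 31.1 and 52.4 CPM in the capillary-marked subset (1.05 ± 0.20, adjusted p = 0.00115), a call lost at a minimum of 5 marker UMIs (0.67, adjusted p = 0.0139) and without the library term (1.03, adjusted p = 0.254).

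**Figure D4:**
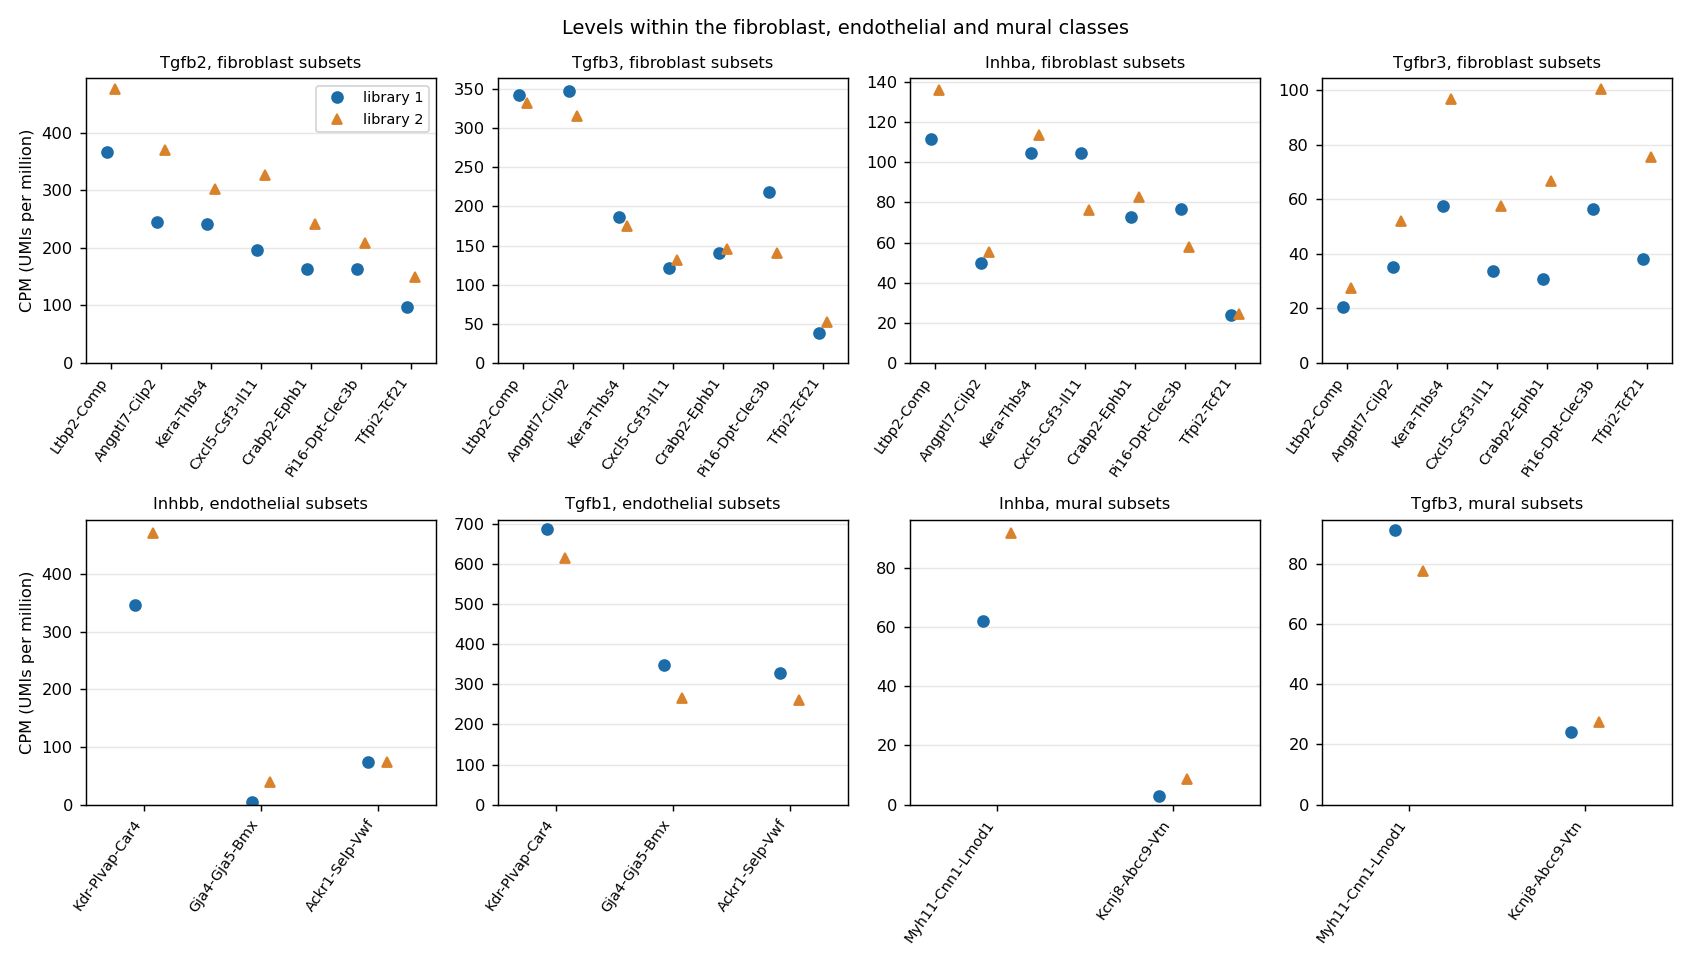
CPM of selected members in the marker-defined subsets of fibroblasts, endothelial and mural classes, with circles for library 1 and triangles for library 2. Inhbb is at 346 and 471 CPM in the Kdr-Plvap-Car4 subset and at 74.0 CPM or less in the other endothelial subsets, and Tgfb3 is at 38.3 and 51.8 CPM in the Tfpi2-Tcf21 fibroblasts.

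Among fibroblast subsets, Tgfb3 was called in 3 of 7. The Ltbp2 and Comp subset had 343 and 333 CPM of Tgfb3 and the Angptl7 and Cilp2 subset 348 and 316 CPM, while the Tfpi2 and Tcf21 subset had 38.3 and 51.8 CPM. The other 4 subsets lay between 121 and 219 CPM, and did not overlap with either end. Tgfb3 was higher in the Ltbp2 and Comp subset by 1.23 ± 0.16 (adjusted p = 2.73e-05) and in the Angptl7 and Cilp2 subset by 1.29 ± 0.17 (adjusted p = 1.10e-05), and lower in the Tfpi2 and Tcf21 subset by -2.10 ± 0.23 (adjusted p = 3.66e-07). In the Tfpi2 and Tcf21 fibroblasts 3 of 9 members were called, all lower, beside 15.8% of all genes: Tgfb3, Inhba at 23.7 and 24.4 CPM (-1.73 ± 0.32, adjusted p = 0.000324) and Tgfb2 at 97.6 and 149 CPM (-1.06 ± 0.20, adjusted p = 0.000358). These were also the fibroblasts with the lowest median depth among the named subsets, 5337 and 5555 UMIs, and the part of depth was not tested.

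In the Ltbp2 and Comp subset 2 members were called, beside 5.57% of all genes, and the second was Tgfbr3 at 20.5 and 27.6 CPM, the lowest of the 7 subsets in both libraries (-1.21 ± 0.12, adjusted p = 1.97e-07). The Angptl7 and Cilp2 subset had 1 member called, beside 10.6% of all genes. The Crabp2 and Ephb1 subset had 2, beside 3.59% of all genes, both lower: Fst at 196 and 164 CPM (-1.01 ± 0.24, adjusted p = 0.0105) and Inhbb from 3 and 2 UMIs. Both calls ended at a minimum of 5 marker UMIs, and that of Inhbb also without the library term. Called members numbered 0 in edgeR for the Pi16, Dpt and Clec3b, the Kera and Thbs4 and the Cxcl5, Csf3 and Il11 subsets, where 3.54%, 5.14% and 4.30% of all genes were called. At an unadjusted p under 0.05 these subsets had 4, 5 and 4 members, and no other tool was run on subsets.

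The mural class divided along the activin gene. The Myh11, Cnn1 and Lmod1 subset, marked by smooth muscle genes, had 61.9 and 91.6 CPM of Inhba, against 2.73 and 8.58 CPM in the Kcnj8, Abcc9 and Vtn subset, marked by pericyte genes. Inhba was higher in the smooth muscle-marked subset by 3.70 ± 0.44 (adjusted p = 8.34e-06). Tgfb3 was also higher there, at 91.3 and 77.8 CPM against 24.3 and 27.5 CPM (1.71 ± 0.28, adjusted p = 0.000102), and Tgfb1 was lower, at 34.8 and 58.5 CPM against 103 and 116 CPM (-1.19 ± 0.25, adjusted p = 0.00131). These 3 of 9 members were called beside 12% of all genes. In melanocytes, the Tyrp1, Prb1 and Gjb2 subset had 0 members called over the Syt4, Scrg1 and Nrcam subset in edgeR, with 4 at an unadjusted p under 0.05, beside 0.512% of all genes.

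Other genes of the pathway were read from lists. Of 12 genes of latency and activation, 6 were higher in fibroblasts and 6 in mural cells, with 1 lower in each, beside 18.2% and 14.6% of all genes higher and 8.69% and 10.4% lower. In RPE 5 were higher and 6 lower (26.1% and 24.6% of all genes), in the endothelial class 4 higher and 6 lower (15.3% and 20.7%), in macrophages 2 higher and 7 lower (19.5% and 21.2%), and in melanocytes 5 lower (11.3%). Itgb8, the beta chain of an integrin that releases TGF-beta, had 922 and 1364 CPM in RPE and at most 53.6 CPM elsewhere (7.11 ± 0.49, adjusted p = 2.94e-05). Itgb6, the beta chain of a second such integrin, had 9.95 and 15.3 CPM in RPE and at most 0.506 CPM elsewhere (6.24 ± 0.24, adjusted p = 1.44e-10). RPE thus carried both integrin chains and the lowest Tgfb1 level. Nrros, a membrane anchor for latent TGF-beta in myeloid cells, had 84.0 and 80.5 CPM in macrophages and 23.7 and 17.5 CPM in the endothelial class (macrophage 5.07 ± 0.15, adjusted p = 1.60e-11). Ltbp2, which is also a subset marker here, had 79.9 and 161 CPM in fibroblasts (5.81 ± 0.15, adjusted p = 4.61e-11). Lrrc32, the anchor known from regulatory T cells and platelets and named after its values were seen, had 530 and 568 CPM in the endothelial class and 551 and 570 CPM in mural cells, against at most 55.6 CPM elsewhere (endothelial 3.67 ± 0.10, adjusted p = 3.61e-12, mural 3.71 ± 0.10, adjusted p = 2.77e-11).

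Of 9 other ligands and antagonists, 5 passed the filter on low counts, and 3 of them were higher in fibroblasts and 4 in mural cells, with 0 lower in either by edgeR and 0 at an unadjusted p under 0.05, beside 18.2% and 14.6% of all genes higher. RPE had 2 higher and 2 lower (26.1% and 24.6% of all genes) and melanocytes 2 higher (14.5%). The endothelial class had 3 lower (20.7%) and macrophages 4 lower (21.2%). Fstl3, a follistatin-related activin binder, had 22.7 and 20.8 CPM in fibroblasts, 22.6 and 18.2 CPM in mural cells and 19.3 and 13.5 CPM in melanocytes (fibroblast 2.95 ± 0.20, adjusted p = 9.97e-08). Fstl1, a related secreted protein, had 558 and 870 CPM in fibroblasts (3.14 ± 0.10, adjusted p = 1.54e-10), and Lefty1, an antagonist of Nodal, had 6.69 and 6.47 CPM (2.94 ± 0.24, adjusted p = 4.47e-07). Gdf11, a ligand close to myostatin, had 56.0 and 51.5 CPM in RPE and at most 15.1 CPM elsewhere (4.66 ± 0.26, adjusted p = 1.16e-07).

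Among 8 of 10 other receptors tested, 4 were higher in the endothelial class, where 15.3% of all genes were, and 5 were lower in both RPE and macrophages, where 24.6% and 21.2% of all genes were. Fibroblasts had 3 higher and 1 lower (18.2% and 8.69% of all genes) and RPE also 2 higher (26.1%). Mural cells had 2 higher (14.6%) and melanocytes 1 lower (11.3%). Eng, an endothelial co-receptor, had 1290 and 1360 CPM in the endothelial class against at most 127 CPM elsewhere (4.65 ± 0.08, adjusted p = 1.51e-13). Acvrl1, the endothelial type I receptor ALK1, had 311 and 367 CPM there against at most 48.1 CPM elsewhere (3.99 ± 0.09, adjusted p = 1.06e-12). RPE was higher in Acvr2b, a type II activin receptor, with 22.6 and 21.2 CPM against at most 4.10 CPM elsewhere (3.48 ± 0.15, adjusted p = 3.18e-10). Tgfbr3l, a betaglycan-like gene, reached 3.79 and 1.79 CPM in RPE (2.997 ± 0.49, adjusted p = 9.52e-05).

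The Smads and feedback genes, 12 in all, had 6 higher in the endothelial class, beside 15.3% of all genes, and 10 lower in RPE, beside 24.6% of all genes. Macrophages had 4 higher and 3 lower (19.5% and 21.2% of all genes), fibroblasts 3 higher (18.2%) and mural cells 2 higher (14.6%). Melanocytes had 1 higher and 3 lower (14.5% and 11.3%). Smad6, an inhibitory Smad, had 268 and 283 CPM in the endothelial class (4.02 ± 0.09, adjusted p = 1.25e-12), and Smurf2, a ubiquitin ligase that acts on the receptors, had 131 and 226 CPM (2.21 ± 0.10, adjusted p = 8.87e-10). Pmepa1, a feedback inhibitor, had 1400 and 1251 CPM in fibroblasts (1.87 ± 0.10, adjusted p = 1.24e-08), and Tgif1, a corepressor, had 163 and 160 CPM in macrophages (1.92 ± 0.12, adjusted p = 1.21e-08). Of 10 genes known to respond to TGF-beta, 8 were higher in fibroblasts and 7 in mural cells, while 9 were lower in RPE and 7 in macrophages. Over all genes, 18.2% were higher in fibroblasts and 14.6% in mural cells, and 24.6% were lower in RPE and 21.2% in macrophages. The endothelial class had 4 response genes higher and 5 lower (15.3% and 20.7% of all genes) and macrophages also 2 higher (19.5%). Melanocytes had 1 response gene higher and 4 lower (14.5% and 11.3%). Col1a1, a fibrillar collagen chain, had 3292 and 2991 CPM in fibroblasts, and Ccn2, a matrix-associated growth factor, 2060 and 2619 CPM. Tagln, an actin-binding protein of smooth muscle, had 3150 and 2343 CPM in mural cells, and Tgfbi, a secreted matrix protein, 213 and 335 CPM in macrophages. Several of these are also general markers of the class that leads. Immediate early and heat shock genes, 11 that tissue digestion can induce, summed to between 3117 and 9279 CPM across classes and libraries, highest in mural cells, and their part in these levels was not tested.

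**Figure D5:**
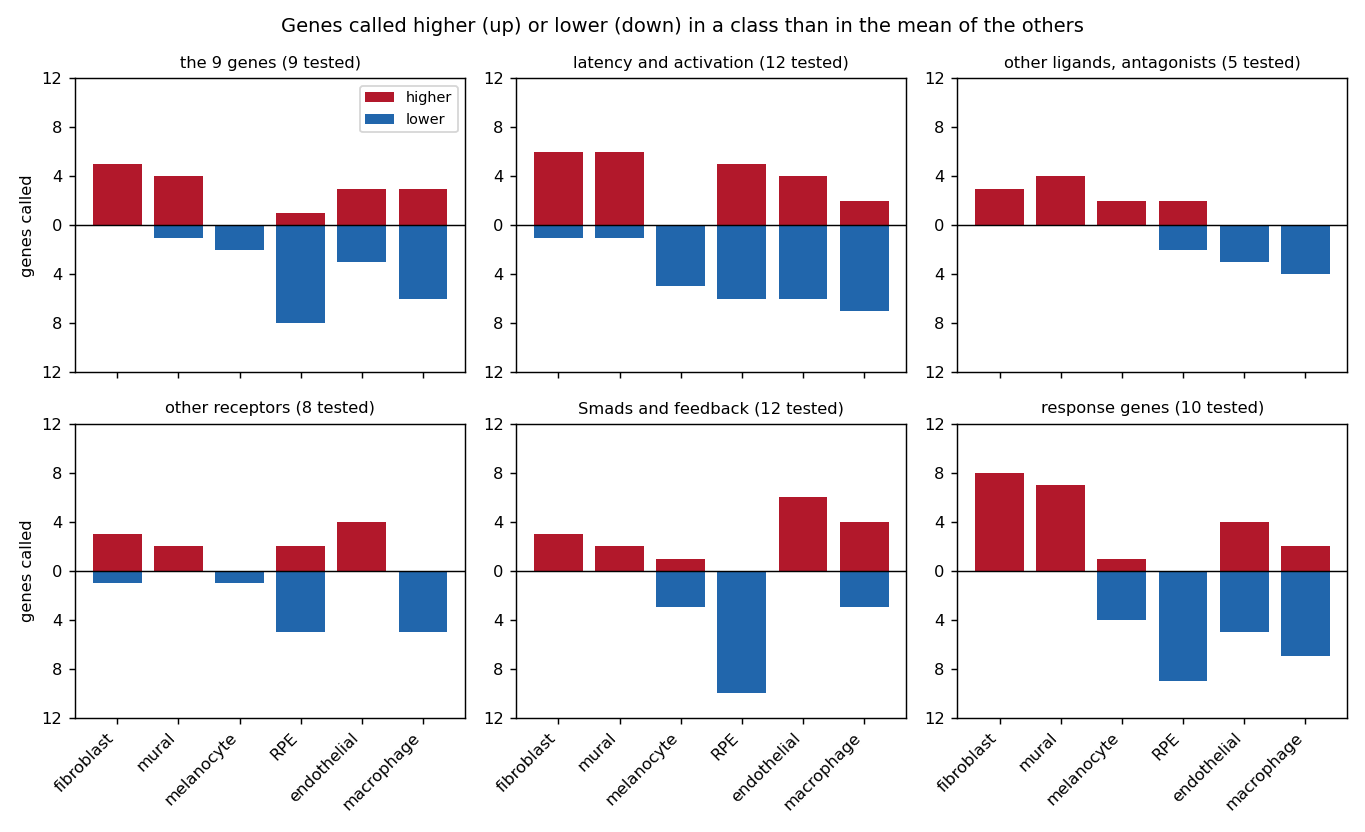
Number of genes called higher (bars up) or lower (bars down) in each class than in the mean of the other 5, for the 9 genes and for 5 lists of the pathway. RPE has 10 of 12 Smad and feedback genes and 9 of 10 response genes lower, and fibroblasts have 8 of 10 response genes higher.

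The genes with the most similar profile were sought by Pearson's r of log2 CPM over the 12 sums of 6 classes in 2 libraries, which share libraries and scaling, so r is a description. Tgfb1 was nearest to Ly6e (r = 0.990) and Rara (0.983), Tgfb2 to Col5a2 (0.984) and Ndrg4 (0.981), and Tgfb3 to Tmem45a (0.997) and Serping1 (0.991). Inhbb was nearest to Sema7a (0.991) and Ptprb (0.984), and Fst to Lox (0.992) and Serpine2 (0.989). The profile of Inhba was matched less closely, by Mirg and Meg3 (0.945 each). For the receptors the nearest genes were Vps18 and Rragc for Tgfbr1 (0.983 each), Synj2 (0.982) and Icam1 (0.981) for Tgfbr2, and Pcdhb14 (0.991) and Pcdhb19 (0.966) for Tgfbr3. Among the members, the closest pair was Tgfb3 and Fst (0.978), and Tgfbr1 and Tgfbr3 ran most oppositely (-0.858).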

How the data were processed

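Raw UMI counts per gene and barcode were deposited by the authors for 2 libraries. Per the file headers they were made with Cell Ranger 4, while the submitters' processing notes name Cell Ranger 2.1.1 and the build mm10. No source used here names the gene annotation. Per the labels' protocols, minced choroids were digested with collagenase A and trypsin. The matrices list 1959894 and 1856693 barcodes.

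The 9 members, the gene lists and the classes were chosen with earlier results of these data known. Named genes were all members, the genes with the largest rise in a class among those called, at most 4 for each list, and for each member the 2 genes with the closest profile. Barcodes outside a class numbered 678 and 784. UMI counts were summed by class and library to 12 sums, since cells are not replicates, and tested by the robust quasi-likelihood method of edgeR 4.0.16 in R 4.3.3 after filterByExpr and TMM scaling. The library was a block, because every class of a library comes from the same mice. The fit tested 15420 genes with 5 residual degrees of freedom, and all 9 members passed its filter. Subsets were fitted as 32 sums, with 14300 genes and 15 residual degrees of freedom. The share called over all genes leaves out the genes that define classes and, for subsets, also those that define subsets. P-values were adjusted over all genes tested. They measure the spread between the sums that remains once a library shift shared by all classes is taken out. This spread may be technical. Each SE was obtained from the log2 fold change and its F statistic, and CPM values from raw UMI totals. The fit was tested on simulated data, where 100% of 200 changed genes were recovered for fibroblasts over the mean of the others. Recovery was scored by adjusted p and direction alone. The changed genes were above a minimum mean count, with folds above the call limit. All genes shared a common spread, without a library effect. The simulation thus does not cover members with few UMIs or a spread of their own. Free RNA was estimated from barcodes with at most 100 UMIs, with its share in a class set by rod genes. Thinned shares are the expected share at 1000 UMIs. Alternatives used DESeq2 1.42.0, other scaling, filters and cell limits, and Scrublet in scanpy 1.11.5 under Python 3.11.15. Cross-reads between genes could not be checked without reads.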

Additional observations from a re-analysis of the deposited data

How the results depend on the processing

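Of the 16 higher calls, 15 were kept under all 12 tested settings, and the exception was Tgfbr2 in macrophages. The number of lower calls was 12 in place of 20 when barcodes with a second class were removed, which left 23 and 78 RPE barcodes, and also 12 when free RNA was subtracted. Over all genes, lower calls numbered 14936 in the main fit, 10186 with those barcodes removed and 12905 with free RNA subtracted. The genes tested numbered 15420, 14136 and 15297. Subtracting free RNA leaves some class sums at 0, which lowers the mean that other classes are set against. In the endothelial class the log2 fold change of Tgfb2 turned to 0.40 with free RNA subtracted and to 1.18 with mixed barcodes removed. Free RNA subtraction also turned it to 2.28 for Tgfb3 in melanocytes (now among 2 genes called higher there), and to 0.80 for Tgfb3 and 0.095 for Inhbb in RPE. It further turned to 1.34 for Inhbb, 0.32 for Fst and 0.31 for Tgfbr3 in melanocytes, and to 0.96 for Inhbb in fibroblasts. With mixed barcodes removed, Inhbb in fibroblasts turned to 2.09 and was called, Inhba to 1.77 in the endothelial class and 0.55 in macrophages, and fibroblasts fell below mural cells in Inhba (-0.095) and RPE below fibroblasts in Tgfbr3 (-0.46). Near 0, Tgfbr3 in melanocytes turned to 0.19 with raw totals, 0.058 without a filter, 0.014 at 10 class marker UMIs and 0.097 without doublets, and Tgfb2 in melanocytes to -0.12 at 10% mitochondrial UMIs. The cause was not tested where no construction is given. Raw totals shifted the median of all genes by -0.43 in macrophages to 0.20 in melanocytes. Without the replicate block, 16 calls were higher and 20 lower, 4 genes (5 with it) had a called lead over the next class, and 15 subset calls were made (17 with it). Over all genes, class calls without the block numbered 16277 higher and 14251 lower, against 16677 and 14936 with it. Values from 1 library alone have no test. Depth limits the low values, and the free RNA estimate is too high in places: in macrophages of library 1 it exceeded the counted UMIs of 5 genes.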

Other observations

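Among the barcodes in no class, marker lists of other cell types, applied after the data had been seen, gave B cell-marked barcodes (70 and 65 in libraries 1 and 2) with 324 and 333 CPM of Tgfb1 and T and NK cell-marked barcodes (53 and 81) with 291 and 325 CPM. Tgfbr2 had 98.3 and 234 CPM in the T and NK cell-marked barcodes and 106 and 116 CPM in the B cell-marked ones. Keratin-marked epithelial barcodes, 12 and 54 with medians of 24935.5 and 19319 UMIs, had 586 and 401 CPM of Fst and 226 and 164 CPM of Tgfb1. In library 1 a single barcode held 140 of the 283 Fst UMIs and 44 of the 109 Tgfb1 UMIs. Schwann cell-marked barcodes (43 and 59) had 73.4 and 78.1 CPM of Tgfbr3, from 18 and 24 UMIs. Neutrophil-marked barcodes, 12 and 14, had Tgfbr1 at 262 and 337 CPM, from 8 and 9 UMIs.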
